A study of Mus musculus with 6 samples.

Results

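The 11 annotated small noncoding RNA genes were described in lipopolysaccharide-treated mouse macrophages, together with the protein-coding genes that span them on the chromosome. They were selected on 3 conditions: a gene type of miRNA, snoRNA, scaRNA or snRNA, a place on an autosome, and a mean of at least 5 FPKM over the 5 distinct libraries. FPKM is the number of reads scaled to the length of the gene and to the reads of the library. Of 54532 rows in the deposited table, 4834 were autosomal rows of these 4 types, and 11 reached the threshold. These were 7 of 2054 miRNA rows, 3 of 1442 snoRNA rows, 1 of 1292 snRNA rows and 0 of 46 scaRNA rows. The highest scaRNA row, Gm24644, had a mean of 1.55 FPKM. A protein-coding row spanned 8 of the 11 members, 4 on the same strand and 4 on the opposite strand, and no member lay inside a lincRNA row. The mean FPKM chose the members, so their level is a description only. The difference between the groups is not one of these conditions. However, Mir7683 reached the threshold only through the siNC libraries, so its difference between the groups is a description only.

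All samples were bone-marrow-derived macrophages, phagocytes grown in culture from marrow precursors of C57BL/6 mice, and all had been treated with lipopolysaccharide (LPS), a molecule of the outer bacterial membrane, at 100 ng/ml for 12 hours. The siCXCR4 group carried a small interfering RNA (siRNA) against the chemokine receptor gene Cxcr4, and the siNC group a negative-control siRNA. The labels name 3 samples per group, but the table of siNC replicate 3 held whole read counts equal to the reads of siNC replicate 2 in 19072 of 19072 genes with reads, so the pair was counted as 1 sample. Transfection with an siRNA lowers a transcript in a mixed culture for a limited time and is no deletion of the gene. The labels do not tell separate animals or cultures from repeat libraries, so p-values here cover the spread between the libraries, which could be technical in part or whole.

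The 5 libraries held 18890751 to 21780840 reads in listed genes. Cxcr4 was measured at 41.3 and 42.1 FPKM in the siNC libraries and at 31.1, 36.2 and 32.7 FPKM in the siCXCR4 libraries. All 3 siCXCR4 libraries lay below both siNC libraries. On the log2 scale siCXCR4 minus siNC was -0.32 for Cxcr4 (SE 0.07), with an adjusted p of 0.457 by limma and of 0.0349 by DESeq2. An exact two-sided permutation test gave p = 0.1, the smallest that 2 against 3 libraries allow. The 8 macrophage markers, among them Lyz2, Csf1r and Adgre1, lay between 32.8 and 2470 FPKM in every library. Of 25 markers of other blood and connective tissue cells, 22 had a mean under 1 FPKM, 5 of these had no read, and the highest was the neutrophil granule gene Ngp at 30.0 FPKM.

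MicroRNAs (miRNAs) are cut from hairpins in longer transcripts by Drosha and Dicer and guide Argonaute proteins to messenger RNAs through their seed, and several restrain or extend the LPS response of macrophages. Small nucleolar RNAs (snoRNAs) sit mostly in introns of host genes, from which they are released after splicing. Those of the C/D box type guide methylation of ribosomal RNA and those of the H/ACA type guide its pseudouridylation. The related scaRNAs guide the same changes on small nuclear RNAs (snRNAs), the RNA cores of the spliceosome. Mature miRNAs are usually sequenced from size-selected libraries. The labels name total RNA and standard library preparation with no such selection, so a read in one of these rows can come from a mature RNA, its precursor or the intron of a host transcript, and these sources cannot be told apart in the tables.

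Mature sequences from RefSeq (GRCm38.p6) were found for 3 of the 7 miRNA members, Mir5125, Mir186 and Mir7683. They are shown because they are what these genes are annotated to produce, with the seed (bases 2 to 8) in capitals. No 2 of the 5 sequences shared a seed.
mmu-miR-5125: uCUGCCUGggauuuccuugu
mmu-miR-186-5p: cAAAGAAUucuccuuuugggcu
mmu-miR-186-3p: gCCCUAAGgugaauuuuuuggg
mmu-miR-7683-5p: uUCCGUGUuucgucugaccacu
mmu-miR-7683-3p: uGGAAAGGuggaacacggaac

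The snoRNA and snRNA members are shown whole, from GENCODE M21 on GRCm38 and on the strand of each gene, because their boxes tell the type of RNA. Capitals mark the first TGATGA (a form of box C) and the last CTGA (box D) in Snord89 and Snord104, and the last ACA in Gm23722. Only the strand of the gene was searched. The box C letters began at base 10 of Snord89 and at base 5 of Snord104, with box D 7 and 2 bases before the end. In Gm23722 no TGATGA was found, and the last ACA stood 3 bases before the end, the place it has in H/ACA snoRNAs. Among 1507 annotated snoRNA genes, 24.0% held TGATGA followed by CTGA and 17.6% had an ACA 3 bases before the end.
Snord89: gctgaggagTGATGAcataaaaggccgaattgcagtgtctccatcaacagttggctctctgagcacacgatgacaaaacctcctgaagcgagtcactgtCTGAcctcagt
Snord104: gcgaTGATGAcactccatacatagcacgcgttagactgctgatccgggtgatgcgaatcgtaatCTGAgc
Gm23722: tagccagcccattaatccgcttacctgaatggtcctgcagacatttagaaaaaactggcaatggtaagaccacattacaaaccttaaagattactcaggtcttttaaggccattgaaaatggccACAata
Gm24480: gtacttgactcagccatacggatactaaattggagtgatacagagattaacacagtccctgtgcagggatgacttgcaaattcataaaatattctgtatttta

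The 3 predicted miRNA genes below are shown because their letters bear on how reads could be assigned to them. In Gm22121 capitals mark 6 repeats of TGAGC (30 bases of 54), and in Gm44339 they mark 21 repeats of CA (42 bases of 84).
Gm23935: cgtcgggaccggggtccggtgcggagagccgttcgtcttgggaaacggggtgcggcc
Gm22121: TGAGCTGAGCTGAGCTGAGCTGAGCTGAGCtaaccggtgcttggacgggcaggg
Gm44339: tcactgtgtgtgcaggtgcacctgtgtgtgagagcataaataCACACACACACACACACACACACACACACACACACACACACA
Transcripts of 1238 annotated genes held the CA run of Gm44339. Gm44339 also had a near-identical copy, Gm44481 (98.8% over 84 bases), with 16 reads in the 5 libraries together. Gm23935 had 5 near-identical miRNA genes, and 2 of them, Gm24245 and Gm24270, matched all of its 57 bases. The 5 copies held 4 reads in all, each in Gm24270. Near-identical meant at least 94% identity over at least 95% of the length, limits set after the data were seen. Reads of Gm23935 and Gm44339 are uncertain for this reason, since the sources used here do not give how reads that match several places were counted. Gm24480 had no near-identical gene but matched 96 other snRNA genes at 74.1% to 84.2% identity. No other member had a near-identical gene. Only annotated transcripts were searched, so a match to any sequence outside them would not have been found.

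The 11 members were 54 to 130 bases long, so 1 read was worth 0.383 to 0.922 FPKM, and levels of 5 FPKM and above rested on few reads. Reads per library ran from 2 to 57, the mean per member ran from 6.6 to 49 reads, and 6 members had a mean under 20 reads. Over all 9944 rows with a mean of at least 1 FPKM the median was 596.5 reads. The 95% interval of a log2 fold change reached a median of 0.617 to either side of the estimate for the members, against 0.171 for all rows.

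In siCXCR4 against siNC libraries, no member passed the test (limma on log2(FPKM + 1), Benjamini-Hochberg adjusted p under 0.05 over all 9944 rows), and neither did any row of the table (0%). At an unadjusted p under 0.05 there were 3 members, Gm23935, Gm44349 and Mir7683, against 9.34% of all rows. The same 3 members, all miRNA genes, had every siCXCR4 library below both siNC libraries, a pattern held by 9.92% of all rows. Mir7683 is counted here although only its siNC values made it a member. No member had every siCXCR4 library above both siNC libraries, against 17.9% of all rows. The log2 fold change was below 0 in 8 of 11 members, against 43.6% of all rows. Its median was -0.13 over the members, -0.28 over the 7 miRNA genes and 0.05 over the 3 snoRNA genes, and 0.01 over all rows. With edgeR on the whole reads also 0 members passed. DESeq2 gave no adjusted p for any member, so it could not call one, and its lowest unadjusted p was 0.0517 (Gm23935). An unadjusted p under 0.05 was reached by 1 member in edgeR, Gm23935. In bulk RNA, fewer cells of a type and less RNA per cell cannot be told apart.

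**Figure D1:**
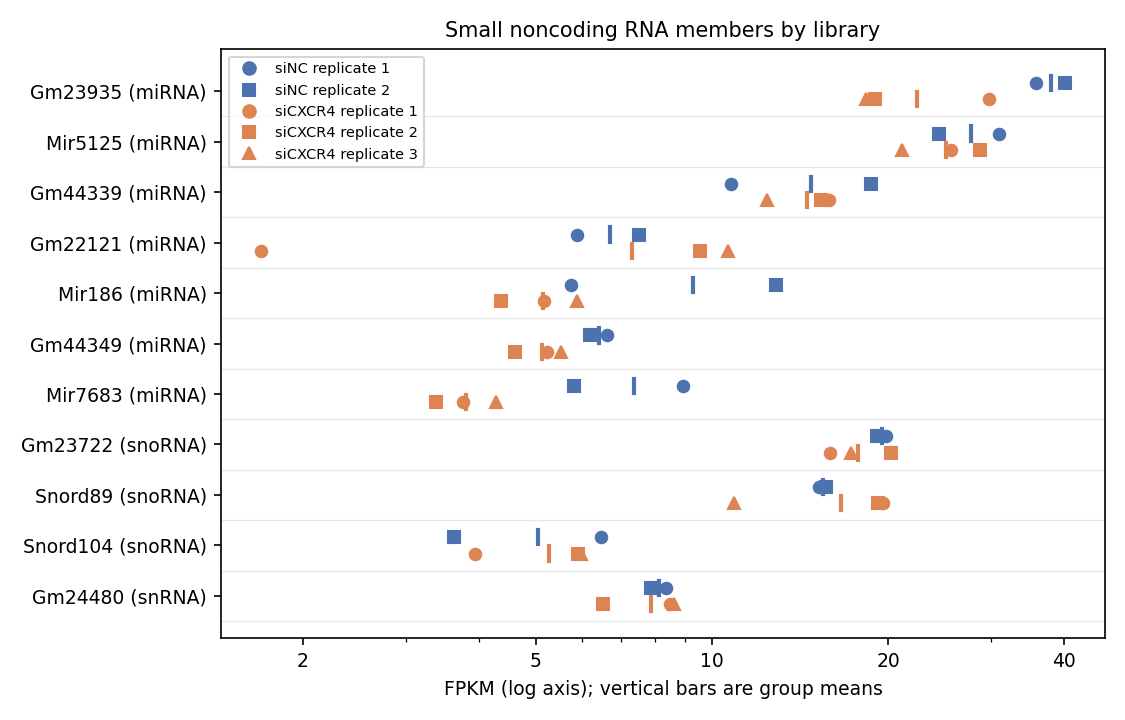
FPKM (log axis) of the 11 small noncoding RNA genes in the 2 siNC and 3 siCXCR4 libraries, 1 point per library, with vertical bars at the group means. In Gm23935, Gm44349 and Mir7683 the siCXCR4 points lie left of both siNC points, and in the other 8 genes the groups overlap.

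Gm23935, at chr16:11144125-11144181 (GRCm38, plus strand), was the most abundant member. It lies in an intron of Zc3h7a, a zinc finger protein gene on the opposite strand. Gm23935 has 5 near-identical genes, and only annotated transcripts were searched, so the source of its reads is uncertain. Its level was 35.8 and 40.04 FPKM in siNC libraries (45 and 45 reads) and 29.8, 19.01 and 18.3 FPKM in siCXCR4 libraries (37, 21 and 20 reads). Both siNC libraries stood above the 3 others, while siCXCR4 replicate 1 lay closer to siNC than to the other siCXCR4 libraries in reads. The group means were 37.9 ± 3.01 FPKM (SD, n = 2) and 22.4 ± 6.44 FPKM (SD, n = 3), with a log2 fold change of -0.77 (SE 0.23, unadjusted p = 0.0248, adjusted p = 0.504 by limma). Its pooled read ratio, siCXCR4 to siNC, was 0.589, with a 95% counting interval of 0.429 to 0.806. It was the only member whose interval lay below 1. Such an interval covers counting error only, as repeat reads of 1 molecule could not be recognized without molecular identifiers. Without siCXCR4 replicate 1 or any other library the direction was kept, and the fold change ran from -0.98 to -0.65.

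Mir7683, at chr1:171641840-171641900 (minus strand), lies in an intron of Slamf7, which codes for an immune cell receptor of the SLAM family, on the same strand. It was read 12 and 7 times in siNC libraries and 5, 4 and 5 times in siCXCR4 libraries, or 8.92 and 5.82 against 3.76, 3.38 and 4.28 FPKM. The groups did not overlap, but they were separated by 2 reads. The log2 fold change was -0.78 (SE 0.17, unadjusted p = 0.00485, adjusted p = 0.457 by limma), the lowest among the members, and ran from -1.05 to -0.51 with each library left out in turn. The group means were 7.37 FPKM (siNC) and 3.81 FPKM (siCXCR4), so Mir7683 reached the mean of 5 FPKM only through the siNC libraries. Its fold change and p are thus a description only.

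Gm44349, a predicted miRNA gene at chr11:69980692-69980814 (plus strand), overlaps the gene of the Elongator subunit Elp5 on the opposite strand, and 5 of its bases fall in an exon. Its level was 6.63 and 6.19 FPKM in siNC libraries (18 and 15 reads) and 5.23, 4.61 and 5.52 FPKM in siCXCR4 libraries (14, 11 and 13 reads). The groups did not overlap, and neighbouring libraries of the groups differed by 1 read before scaling. The log2 fold change was -0.28 (SE 0.08, unadjusted p = 0.0104, adjusted p = 0.488 by limma).

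Mir186, at chr3:157544279-157544349 (plus strand), lies in an intron of Zranb2, the gene of a splicing-related zinc finger protein, on the same strand. Its level was 5.75 and 12.9 FPKM in siNC libraries (9 and 18 reads) and 5.17, 4.36 and 5.88 FPKM in siCXCR4 libraries (8, 6 and 8 reads). Only siNC replicate 2 was high, and the other siNC library lay within the siCXCR4 range. The log2 fold change of -0.66 (SE 0.34, adjusted p = 0.615 by limma) became -0.14 without siNC replicate 2.

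Mir5125, at chr17:23823291-23823369 (plus strand), lies in an intron of Srrm2, a scaffold protein gene of the splicing machinery, on the same strand. It was measured at 31.0 and 24.4 FPKM in siNC libraries (54 and 38 reads) and at 25.6, 28.7 and 21.1 FPKM in siCXCR4 libraries (44, 44 and 32 reads). The groups overlapped, and the log2 fold change was -0.13 (SE 0.16, adjusted p = 0.805 by limma).

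The 2 remaining miRNA members, Gm44339 and Gm22121, are the repeat-bearing genes shown above, and each lies in an intron on the strand opposite to its spanning gene. Gm44339 (chr1:173643511-173643594, minus strand) sits in Ifi209, an interferon-inducible gene. It had 10.8 and 18.7 FPKM in siNC libraries against 15.9, 15.4 and 12.4 FPKM in siCXCR4 libraries. The siNC libraries held both the lowest and the highest value, and the log2 fold change was 0.02 (SE 0.25). Gm22121 (chr11:44469013-44469066, plus strand) sits in Ublcp1, a phosphatase gene. Its reads were 7 and 8 in siNC libraries and 2, 10 and 11 in siCXCR4 libraries, or 5.88 and 7.51 against 1.70, 9.55 and 10.6 FPKM. One siCXCR4 library was the lowest and the other two were the highest, and the log2 fold change of -0.14 had a 95% interval from -2.21 to 1.92.

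The predicted fold of each miRNA member, a property that played no part in the choice, was computed for the annotated gene. Without scaling to length, Gm44349 had the lowest minimum free energy, -40.4 kcal/mol. Scaled to 100 bases, Mir186 had the lowest of the 7, with -46.6 kcal/mol, and Gm44339 the highest, with -29.4. The median per 100 bases over 2202 annotated miRNA genes was -36.9. Gm44339 and Gm44349 (-32.8) lay above that median, and the other 5 lay below it.

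The 3 snoRNA members had overlapping groups. Gm23722 (chr1:39573746-39573875, minus strand), the member with the most reads, lies in an intron of Rnf149, a ubiquitin ligase gene, on the same strand. It was measured at 19.9 and 19.1 FPKM in siNC libraries (57 and 49 reads) and at 15.9, 20.2 and 17.3 FPKM in siCXCR4 libraries (45, 51 and 43 reads). siCXCR4 replicate 2 was the highest of all 5 libraries, and the log2 fold change was -0.13 (SE 0.10, adjusted p = 0.691 by limma).

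Snord89 (chr1:39548745-39548854, minus strand) lies downstream of Rnf149 in an intron of the processed transcript Gm15832, a gene type that the selection of spanning genes did not include. It had 15.2 and 15.7 FPKM in siNC libraries (37 and 34 reads) and 19.6, 19.2 and 10.9 FPKM in siCXCR4 libraries (47, 41 and 23 reads). The siCXCR4 libraries lay on both sides of siNC, and the log2 fold change was 0.05 (SE 0.28, adjusted p = 0.969 by limma). Gm15832, looked at after the data were seen, had group means of 13.2 ± 0.140 FPKM (SD, n = 2) and 12.7 ± 0.995 FPKM (SD, n = 3). The log2 ratio of Snord89 to Gm15832 was 0.21 and 0.23 in siNC libraries and 0.54, 0.68 and -0.28 in siCXCR4 libraries, so it overlapped as well.

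Snord104 (chr11:106500993-106501062, plus strand) lay outside every protein-coding and lincRNA row. It was read 10 and 5 times in siNC libraries and 6, 8 and 8 times in siCXCR4 libraries, or 6.48 and 3.62 against 3.94, 5.90 and 5.97 FPKM. The siNC libraries were the highest and the lowest of the 5, and the log2 fold change was 0.07 (SE 0.27, adjusted p = 0.952 by limma).

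The snRNA member Gm24480 (chr4:124697505-124697607, minus strand) had no spanning row either. It was measured at 8.36 and 7.88 FPKM in siNC libraries (19 and 16 reads) and 8.47, 6.51 and 8.62 FPKM in siCXCR4 libraries (19, 13 and 17 reads). The groups overlapped, and the 95% limma interval of its log2 fold change of -0.05 ran from -0.33 to 0.23. Its pooled read ratio was 0.951, with a 95% counting interval of 0.604 to 1.51. On the X chromosome, and so outside the selection, the snRNA gene Gm25047 had a mean of 15.1 FPKM and a log2 fold change of 0.01.

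**Figure D2:**
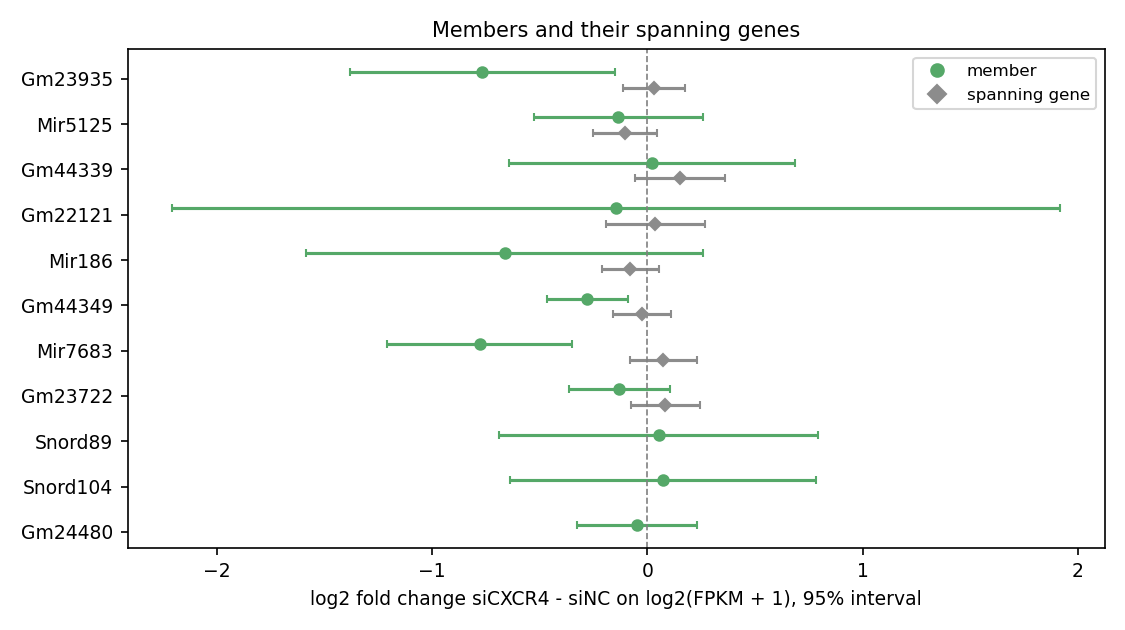
Log2 fold change, siCXCR4 minus siNC on log2(FPKM + 1), with 95% intervals from limma, for the 11 small noncoding RNA genes (circles) and the 8 protein-coding genes that span them (diamonds). The intervals of the 8 spanning genes all hold 0, whereas those of Gm23935, Gm44349 and Mir7683 lie below 0. The counting intervals of the pooled read ratio hold 1 for Gm44349 (0.477 to 1.29) and Mir7683 (0.232 to 1.05).

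None of the 8 spanning genes passed the test, and their log2 fold changes ran from -0.10 (Srrm2) to 0.15 (Ifi209), with a median of 0.03. Rnf149, Slamf7 and Ifi209 were abundant, with means of 312, 313 and 311 FPKM, whereas Zranb2 and Ublcp1 had 8.52 and 8.40 FPKM. Slamf7 was measured at 287 and 320 FPKM in siNC libraries and at 310, 328 and 320 FPKM in siCXCR4 libraries, so the host of Mir7683 had overlapping groups. Zc3h7a, which spans Gm23935, was measured at 14.5 and 15.3 against 15.8, 14.4 and 15.5 FPKM, again with overlap. Elp5, which spans Gm44349, was measured at 32.9 and 31.5 against 32.4, 32.5 and 30.0 FPKM. Of the 8 spanning genes, Srrm2 and Zranb2 had all siCXCR4 libraries below both siNC libraries, by log2 fold changes of -0.10 and -0.08, a pattern held by 9.92% of all rows.

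The level of a member relative to its spanning gene differed widely between pairs. The mean of Gm23935 was 190% of that of Zc3h7a. Mir5125, Mir186 and Gm22121 stood at 80.4%, 79.8% and 84.0% of Srrm2, Zranb2 and Ublcp1. Gm44349 stood at 17.7% of Elp5, Gm23722 at 5.91% of Rnf149, Gm44339 at 4.70% of Ifi209 and Mir7683 at 1.67% of Slamf7. The 3 pairs at the lowest share were those whose spanning gene was most abundant. These shares compare a short stretch of intron with the exons of a whole gene.

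Taking log2(FPKM + 1) of the member minus that of its spanning gene in each library, the difference between groups was below 0 in 8 of 8 pairs. Over all 349 pairs in the table of a row inside a protein-coding or lincRNA row, both with a mean of at least 1 FPKM, it was below 0 in 61% of pairs. The median difference was -0.23 over the 8 pairs and -0.07 over the 349 pairs. No pair passed the test among the 8 or among all 349 pairs (0%), and the lowest adjusted p among the 8 was 0.630 by limma. The ratio had all siCXCR4 libraries below both siNC libraries in 3 of the 8 pairs, against 18.1% of all pairs, and above in 0 of the 8, against 7.16%. The 4 pairs on the same strand had a median of -0.40 and the 4 on opposite strands -0.22.

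The 3 pairs without overlap held the same members as before. Among them, Mir7683 was a member only through its siNC values. For Gm23935 and Zc3h7a the log2 ratio was 1.25 and 1.33 in siNC libraries and 0.87, 0.38 and 0.23 in siCXCR4 libraries, a difference of -0.80 (SE 0.21). For Mir7683 and Slamf7 it was -4.86 and -5.56 against -6.03, -6.23 and -5.92, a difference of -0.85 (SE 0.29). For Gm44349 and Elp5 it was -2.15 and -2.18 against -2.42, -2.58 and -2.25, a difference of -0.25 (SE 0.17). In each pair the ratio followed the member, since the spanning genes differed by -0.03 to 0.07 on the log2 scale. The sources used here do not give the strand setting of the authors' counting, and without it reads of a member and of a spanning gene on the opposite strand cannot be told apart.

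**Figure D3:**
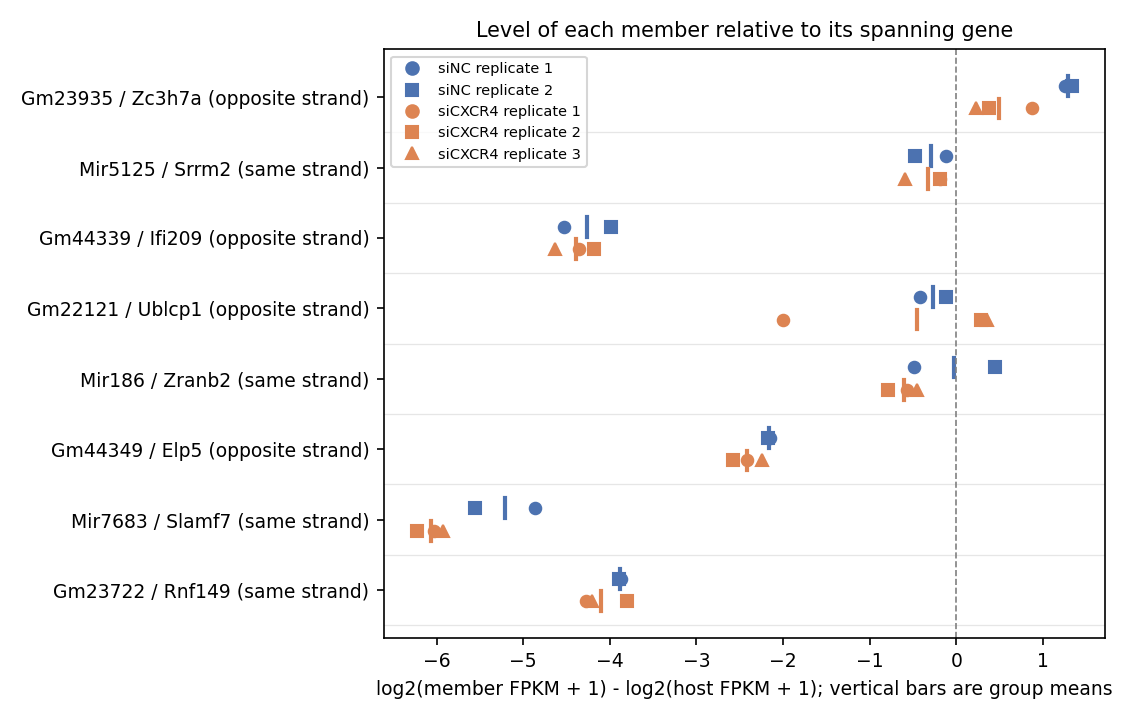
Log2(FPKM + 1) of each small noncoding RNA gene minus that of its spanning protein-coding gene, 1 point per library with vertical bars at group means, for 8 pairs. Gm23935 lies above 0, so it exceeded Zc3h7a in every library, and Mir7683 lies lowest. The siCXCR4 points of Gm23935, Gm44349 and Mir7683 lie left of both siNC points.

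The members held 200 to 288 reads per library, and the remaining reads of these gene types were spread thinly over 643 other autosomal rows. Summed over all 4834 rows, small noncoding RNA genes received 55.2 and 56.4 CPM (counts scaled to a common total of reads in genes) in siNC libraries and 44.1, 44.3 and 46.1 in siCXCR4 libraries. The groups did not overlap, and the difference between the means was -19.7% (exact two-sided permutation p = 0.1, the smallest this design allows). These sums were examined after the data were seen. The members alone received 13.4 and 13.8 against 11.8, 12.1 and 10.6 CPM. With the members left out, the difference was -21.0%.

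Each gene type lay lower in all 3 siCXCR4 libraries than in both siNC libraries. miRNA rows received 23.2 and 23.5 against 17.8, 17.6 and 18.2 CPM, a difference of -23.4%. snoRNA rows received 19.9 and 20.3 against 16.7, 17.4 and 18.3, a difference of -13.1%, although 2 of the 3 snoRNA members had log2 fold changes above 0. snRNA rows received 11.2 and 10.9 against 8.999, 8.64 and 9.05, a difference of -19.4%. scaRNA rows, none of them a member, received 20 and 33 reads against 14, 11 and 10 reads, so their difference of -56.1% rested on the fewest reads.

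Among the 111 autosomal small noncoding RNA rows with a mean of at least 1 FPKM, the log2 fold change was below 0 in 73 rows and above 0 in 38, with a median of -0.21. Groups did not overlap in 22 of these rows with siCXCR4 lower and in 2 with siCXCR4 higher, against 9.92% and 17.9% of all 9944 rows, and none passed the test. With the members left out, 65 of 100 rows were below 0.

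Rows of other noncoding types were lower in all 3 siCXCR4 libraries as well. The nuclear long noncoding RNA Malat1 differed by -28.2% in CPM between siCXCR4 and siNC libraries, sense_intronic rows by -17.7% and lincRNA rows by -12.5%. Malat1 had means of 597 (siNC) and 428 CPM (siCXCR4), and lincRNA rows 2775.5 and 2427.4 CPM. No lincRNA sum without Malat1 was taken, so the differences of Malat1 and of lincRNA rows may not be separate. Antisense rows differed by -5.98%, misc_RNA rows by -33.1% and rRNA rows by -13.9%, whereas protein-coding rows differed by 0.239%. Rows with at least 1 read numbered 19280 and 19072 in siNC libraries and 18801, 18511 and 18520 in siCXCR4 libraries. The share of the FPKM denominator that fell outside the listed genes was 2.80% and 2.15% in siNC libraries and 0.00033%, 0.312% and 1.37% in siCXCR4 libraries. Scaled to the FPKM denominator instead of the reads in genes, the summed small RNA reads differed by -18.1%. The part of the other measures in the lower small RNA sums was not tested.

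**Figure D4:**
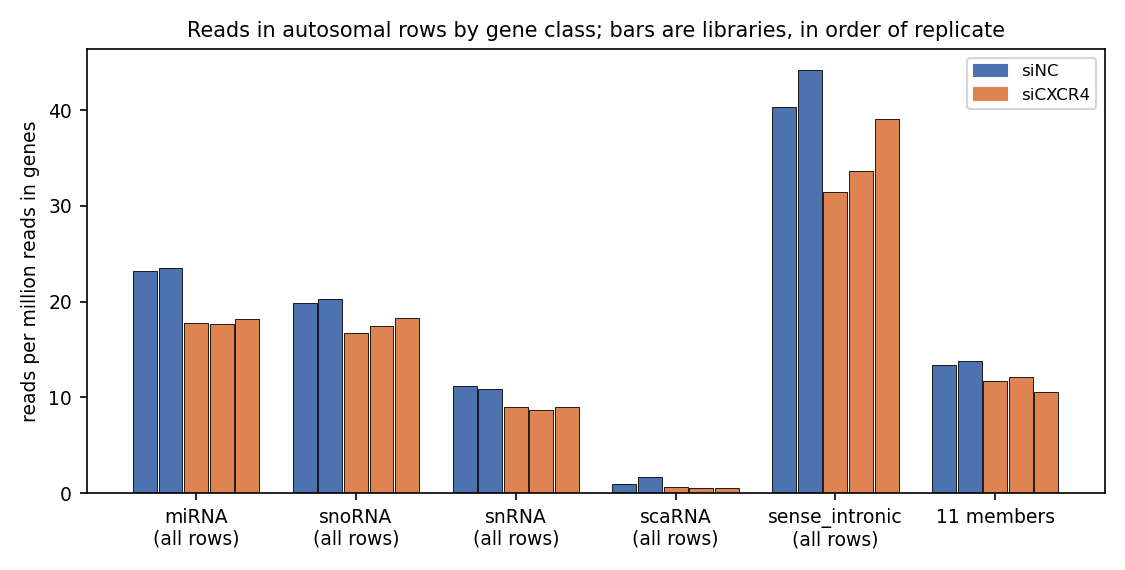
Reads scaled to a common total of reads in genes (CPM), summed over all autosomal rows of a gene type and over the 11 small noncoding RNA genes, 1 bar per library in order of replicate. In the miRNA, snoRNA, snRNA, scaRNA and sense_intronic rows, and in the 11 genes, all 3 siCXCR4 bars are shorter than both siNC bars.

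The place of a small noncoding RNA gene within other genes went with whether it received reads at all. This was examined after the data were seen, against GENCODE M21 exons of other genes whose mean reached 1 FPKM. Of 282 rows wholly inside such an exon, 0 had a read in any library (0%, exact 95% binomial interval up to 1.30%). Of 971 rows in an intron, 490 had a read (50.5%), and 8 members were among them. Of 90 rows partly in an exon, 27 had a read (30%), with 1 member, Gm44349. Of 3491 rows outside such genes, 137 had a read (3.92%), with 2 members, Snord104 and Gm24480. The sources used here do not give how the authors counted reads that overlap more than 1 gene. An annotated small RNA gene wholly inside an exon of a measured gene was thus listed at 0 whatever the level of that gene.

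**Figure D5:**
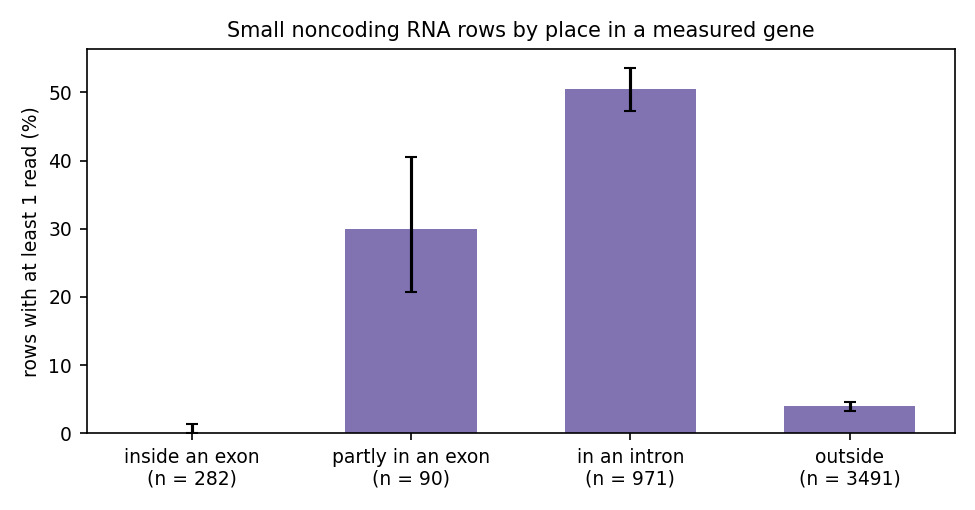
Share of autosomal small noncoding RNA rows with at least 1 read in the 5 libraries (%), by the row's place relative to other genes whose mean reached 1 FPKM, with exact 95% binomial intervals and the number of rows under each bar. The bar for rows inside an exon is at 0, the bar for rows in an intron is the highest at 50.5%, and rows outside such genes stand at 3.92%.

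None of the miRNA genes listed here as best known from the LPS response was a member. Of 20 such genes in the table, 18 had 0 reads in every library. Of these 18, 4 lie inside exons of measured genes, 12 lie outside measured genes, Mir146b lies in an intron, and Mir223, on the X chromosome, was not placed. Mir155, which promotes inflammatory signalling, had no read, while its host transcript Mir155hg, in whose exon it lies, was measured at 34.1 and 37.7 FPKM in siNC libraries and at 31.2, 28.4 and 33.1 FPKM in siCXCR4 libraries. All 3 siCXCR4 values of Mir155hg lay below both siNC values, a pattern held by 9.92% of all rows. The log2 fold change of Mir155hg was -0.21 (SE 0.08, adjusted p = 0.512 by limma). Mir21a, Mir147 and Mir22 are the others that lie inside exons of measured genes. For rows inside exons a 0 is thus no measure of the mature miRNA.

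Mir146, which dampens signalling from the LPS receptor, lies outside measured genes. It was read 7 and 4 times in siNC libraries and 0, 0 and 2 times in siCXCR4 libraries. The groups did not overlap, with siCXCR4 lower, a pattern held by 9.92% of all rows. Mir146 reached the mean of 1 FPKM needed for testing only through the siNC libraries, with group means of 4.00 FPKM (siNC) and 0.535 FPKM (siCXCR4). Its rank is thus a description only. Its log2 fold change of -1.84 (SE 0.53) was the lowest of all 9944 rows, with an adjusted p of 0.504 by limma. With 2 siCXCR4 libraries at 0 reads, its size depended on the setting: it was -3.96 with a pseudocount of 0.1, -2.79 with edgeR and -2.97 with DESeq2. The pooled read ratio was 0.123, with a 95% counting interval of 0.0133 to 0.566. This interval covers counting error only, rests on 13 reads and is a description only, for the same reason as the rank. Mir99b was read 0 and 0 times in siNC libraries and 2, 2 and 1 times in siCXCR4 libraries, at or under the 3 reads that a count of 0 allows.

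Genes of the proteins that make or carry these RNAs were measured in the same libraries, and 0 of any list passed the test. Of 7 genes of H/ACA particles, which hold pseudouridylation guides and scaRNAs, 6 had log2 fold changes below 0, 3 of them with an unadjusted p under 0.05, against 9.34% of all rows. The median over these 7 genes was -0.063. Nop10, a core protein of these particles, was measured at 7.08 ± 0.628 FPKM in siNC libraries (SD, n = 2) and 5.11 ± 0.747 FPKM in siCXCR4 libraries (SD, n = 3), a log2 fold change of -0.41 (SE 0.11, adjusted p = 0.488 by limma). Nhp2, another core protein, had -0.21 (SE 0.07). Both had all siCXCR4 libraries below both siNC libraries, a pattern held by 9.92% of all rows. They were named for the lowest p of their list, which favours this pattern.

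Of 4 core genes of C/D particles, which hold methylation guides such as Snord89 and Snord104, 3 were below 0 and 1 above, with Nop58 at -0.06 and Nop56 at 0.03. Among 7 assembly factors, 4 were below 0 and 3 above, with Nolc1 at 0.15 and Ruvbl1 at -0.11. Among 12 miRNA processing genes, 6 were below and 6 above, with the nuclear exporter Xpo5 at 0.07 and the Argonaute gene Ago3 at -0.16. Over all rows, 43.6% were below 0.

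Of 23 genes of snRNA-protein particles and their assembly, 16 were below 0, with Lsm7 at -0.53 (SE 0.19) and Snrpb2 at -0.19 (SE 0.08). Of 18 genes of snRNA transcription and of Integrator, which trims snRNA ends, 14 were above 0, with Ints8 at 0.21 (SE 0.08) and Ints14 at 0.14 (SE 0.06). All 10 tested genes of a list of noncoding host genes were below 0, with Mir155hg at -0.21 and Snhg6 at -0.22 (SE 0.09). The list also held Mirt1 and Mirt2, which were not shown here to host a small RNA. The summed level of the 17 listed genes with a row, tested or not, was 83.7 to 85.4 FPKM in siNC libraries and 73.3 to 77.4 FPKM in siCXCR4 libraries. The adjusted p of each gene named from these lists was at least 0.488 by limma.

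The 3 members nearest above the threshold were Gm44349, Mir7683 and Snord104, with means of 5.64, 5.23 and 5.18 FPKM. The rows nearest below it were Snord72, Mir142b, Snord53 and Mir1932, with 4.86, 4.81, 4.79 and 4.77 FPKM, and 8, 11.2, 7.6 and 8.8 reads on average. For Mir7683, Snord104 and each of these 4 rows, 1 read more or less in every library would have crossed the threshold.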

How the data were processed

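RNA was sequenced from LPS-treated macrophages of 2 groups. In 5 tables the authors deposited values read here as FPKM. The file headers name no unit, so it was worked out from the values: value times gene length came out as whole reads once divided by the worth of 1 read in that library (within 0.05, for 100% of values). The authors deposited unnormalized counts per gene for siNC replicate 3, equal to the reads of siNC replicate 2. The submitters' processing notes name the build mm9, but 53585 of 54495 rows shared with GENCODE M21 (98.3%), and 11 of 11 members, had GRCm38 positions. The sources used here do not give the aligner, the counting tool or the strand setting.

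The design had assumed FPKM in all tables. Limma 3.58.1 (R 4.3.3, trend and robust estimate, two-sided) was run on log2(FPKM + 1) of 9944 rows with a mean of at least 1 FPKM, and on the log2 ratio of 349 nested pairs. edgeR 4.0.16 and DESeq2 1.42.0 on whole reads were alternatives. BLAST 2.17.0 compared gene sequences, and ViennaRNA 2.7.2 predicted folds. The fits were tested on simulated data. The members and gene lists were chosen with earlier results of these data known. Named genes were all members and their spanning genes, Cxcr4, and the 2 genes of lowest p of each list. Marker genes and LPS-linked miRNA genes came from lists, and which of them to name was chosen after their values were seen. So were Malat1, Gm15832, Gm25047, Gm24644, the sequence copies and the rows near the threshold. No pairing by replicate number was seen (correlations of -0.04 and -0.11). With only 2 siNC libraries, whose deviations from their mean mirror each other, these values cannot show that pairing is absent.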

Additional observations from a re-analysis of the deposited data

How the results depend on the processing

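No alternative called a member, a machinery gene or any of the 8 pairs of a member and its spanning gene. For the members DESeq2 is no such check, since it gave none of them an adjusted p. The median over members ran from -0.23 to -0.10, over miRNA members from -0.52 to -0.26, over snoRNA members from -0.16 to 0.05, and over member to host ratios from -0.46 to -0.20, each extreme with 1 library left out except the upper miRNA and snoRNA ends. The difference in summed small RNA reads, with alternatives added after the data were seen, stayed between -21.0% and -18.1%, and between -20.8% and -18.8% with 1 library left out. Over all 9944 rows edgeR called 3, DESeq2 37 and the copy counted as siNC replicate 3 called 6. The fit without siCXCR4 replicate 2 called 2 of 9963 rows. The other fits, on the rows that each setting left, called 0.

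Cxcr4 passed only with DESeq2 (-0.34, adjusted p = 0.0349). With the replicate block, whose numbers are not shown to pair the libraries, 0 members and 0 of 9944 rows passed, and Snord104 (-0.011) and Elp5 (0.011) changed sign. Since siCXCR4 replicate 3 was alone in its block, the block fold changes equal those of the fit without siCXCR4 replicate 3. Gm44339 changed sign with edgeR (-0.024), DESeq2 (-0.035) and the copy (-0.10), and Gm22121 with edgeR (0.070) and DESeq2 (0.092).

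With each library left out, further log2 fold changes changed sign, and the cause was not tested: Mir5125 (-0.30 to 0.032), Gm44339 (-0.35 to 0.39), Gm22121 (-0.52 to 0.53), Snord89 (-0.084 to 0.31), Snord104 (-0.27 to 0.42), Gm24480 (-0.11 to 0.066), Zc3h7a (-0.0067 to 0.068), Ublcp1 (-0.055 to 0.10), Slamf7 (-0.0052 to 0.15), Elp5 (-0.055 to 0.011) and Nop56 (-0.019 to 0.073). Gm23935, Mir7683, Gm44349, Mir186 and Gm23722 kept their direction under all 16 alternatives. The 11 members had 2 to 57 reads per library.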
